A study of Mus musculus with 4 samples.

Results

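The 10 genes described here encode the machinery that releases and recovers calcium in striated muscle, and they were chosen by name as 10 of the 32285 genes counted in every library. They are Ryr1, the calcium release channel of the sarcoplasmic reticulum; Cacna1s, Cacng1 and Stac3, which belong to or serve the dihydropyridine receptor; Trdn; the calcium buffers Casq1 and Casq2; the pumps Atp2a1 and Atp2a2; and the pump regulator Sln. The libraries came from C3H10T1/2 cells, a mouse mesenchymal progenitor (MPC) line, that stably carried a lentiviral transgene for wild type histone H3 (H3WT) or for H3 with cysteine in place of arginine at position 26 (H3R26C). Both lines were puromycin-selected and kept their own histone genes. One culture of each was exposed to 5-azacytidine (5-Aza), an inhibitor of DNA methylation, at 3 µM for 24 h and collected at day 28, and one received DMSO, the solvent, with a collection day not given in the sources used here. There was therefore 1 library for each of the 4 conditions, no difference could be set against a spread between replicates, and no test was made.

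In skeletal muscle, an action potential moves the dihydropyridine receptor in the surface membrane, which opens the ryanodine receptor opposite it in the sarcoplasmic reticulum. Calcium then leaves the store, where calsequestrin holds it and triadin ties calsequestrin to the channel, and the sarcomere contracts. The SERCA pumps return the calcium to the store, with Atp2a1 the pump of fast skeletal fibres and Atp2a2 a gene used both in slow and cardiac muscle and, as another splice form, in most other cells.

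Cells were read from barcodes with at least 5000 unique molecular identifiers (UMIs, each a counted transcript), at least 1500 genes and at most 20% mitochondrial UMIs, which kept 22049 of 39891 barcodes, or 3710 to 7619 per library. Kept cells held 84060490 to 110712425 UMIs per library, and the median cell was deeper with DMSO (22420 for H3WT and 16598 for H3R26C) than with 5-Aza (13149 and 13123). A cell was called sarcomere-rich when 6 sarcomere genes (Acta1, Actc1, Mylpf, Myl1, Tnnc2 and Tnnt3) together made up at least 1% of its UMIs. None of the 10 genes described here was used for that call, but they move with the 6 and are not independent of it. There were 102 sarcomere-rich cells with H3WT and 5-Aza (1.70%, exact binomial 95% interval 1.39 to 2.06) and 170 with H3R26C and 5-Aza (2.23%, 1.91 to 2.59). The shares were 8.79% and 7.51% with a looser cell filter and 0.818% and 0.643% at a gate of 5%, so the order of the lines turned in both. Neither DMSO library had one, which allows a share of up to 0.0809% with H3WT and 0.0635% with H3R26C by a floor of 3 counts (exact upper limits 0.0994% and 0.0780%), and the highest DMSO cell reached 0.0474% of UMIs from the 6 genes. The call marks a range and not a cell type, since 57 and 102 cells of the 5-Aza libraries lay between 0.5% and 2%. Sarcomere-rich cells had a median of 15409 UMIs with H3WT and 21904 with H3R26C, and their median share from the 6 genes was 4.80% and 3.15%. All 14 of 14 skeletal muscle markers were at least 2-fold higher in them in both libraries, where 10.1% and 7.87% of genes were. Muscle genes move with the 6 sarcomere genes that split the cells, so this count is a description. The 14 markers summed to 23488 and 19937 CPM (UMIs of a gene per 1000000 UMIs of the cells summed) in sarcomere-rich cells. They summed to 675 and 549 CPM in the remaining cells and 2.14 and 1.94 CPM with DMSO. Of 8 cardiac markers, Myl4, Myh6 and Tnni3 were 2-fold or more higher in both libraries, Myl4 alone reached 7680 and 1887 CPM, and Nppa, Nppb, Myl7 and Nkx2-5 had no UMI in sarcomere-rich cells of either. Of 5 smooth muscle markers, Acta2 was at 5419 and 3945 CPM in sarcomere-rich cells against 375 and 365 CPM in the remaining cells. Tagln was at 19.4 and 36.3 CPM against 23.2 and 12.3 CPM, 2-fold or more higher in H3R26C only. Smtn was at 58.1 and 56.9 CPM against 40.0 and 49.4 CPM, and Cnn1 and Myh11 had at most 1 UMI in sarcomere-rich cells. The 5 adipocyte markers summed to 51.7 and 59.0 CPM in sarcomere-rich cells against 240 and 183 CPM in the remaining cells, and neuron, endothelial and blood markers summed to at most 10.3 CPM there. All intervals below are 95% intervals for counting error alone.

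Promoter sequence was at hand for 5 of the 10 genes, from RefSeq on GRCm38.p6, and a window of 180 bases, from 250 to 71 bases before the RefSeq start of the gene, was searched on both strands. The E-box CANNTG, the sequence class bound by the MyoD family, was in 3 of the 5 windows and in 55.5% of 32851 promoter windows of the same length. The form CAGCTG was in 2 of the 5 and in 9.23% of all windows. The MEF2 consensus (2.18% of all windows) and the CArG box (1.0%) were in none of the 5, and Ryr1 and Atp2a1 held no match to any of the searched motifs. Only the 3 windows with an E-box are shown. Ryr1 and Atp2a1, whose windows had none, were also high in sarcomere-rich cells, as were the 3 genes shown. No gene among the 5 was low there to compare with, so whether an E-box goes with a high level was not tested. The printed windows run 5′ to 3′ on the strand of the gene, with E-boxes in capitals.
Casq1, minus strand, chr1:172219966-172220145: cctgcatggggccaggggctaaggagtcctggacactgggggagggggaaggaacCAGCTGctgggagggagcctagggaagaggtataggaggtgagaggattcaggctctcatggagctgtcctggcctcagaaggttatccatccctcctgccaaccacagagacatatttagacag
Casq2, plus strand, chr3:102086165-102086344: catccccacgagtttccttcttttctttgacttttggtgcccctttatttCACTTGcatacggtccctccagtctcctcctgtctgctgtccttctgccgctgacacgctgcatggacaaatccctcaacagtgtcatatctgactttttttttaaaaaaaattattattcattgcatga
Cacna1s, plus strand, chr1:136052561-136052740: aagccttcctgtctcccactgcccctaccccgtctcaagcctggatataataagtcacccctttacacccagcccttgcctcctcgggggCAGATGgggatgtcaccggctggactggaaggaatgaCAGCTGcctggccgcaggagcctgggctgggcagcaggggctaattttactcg
Counted from the RefSeq start, which differs from the gene ends given below from GENCODE, the CAGCTG of Casq1 lay 195 to 190 bases before the start and that of Cacna1s 123 to 118, a second Cacna1s E-box, CAGATG, lay at 160 to 155, and the Casq2 E-box, CACTTG, lay at 200 to 195. The calsequestrin genes thus shared no CAGCTG in this window. A match describes the letters and not a bound site.

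The first question was how the 10 genes stood in sarcomere-rich cells against the remaining cells of the same 5-Aza library. The cells were split by sarcomere genes that move with these 10. A rise was thus in large part set by the split, and the values only describe its size. In H3WT, 9 of the 10 were at least 2-fold higher on the log2(CPM + 1) scale, where 10.1% of genes were, and in H3R26C all 10 were, where 7.87% of genes were. None was 2-fold or more lower, where 25.8% and 23.4% of genes were. The tenth gene, Sln, rested on 4 UMIs of 1 H3R26C cell. Over the 9 genes without Sln the median log2 difference was 4.82 in H3WT and 4.87 in H3R26C, beside −0.38 and −0.42 over all genes tested. The dot plot of levels by library gives every value.

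**Figure D1:**
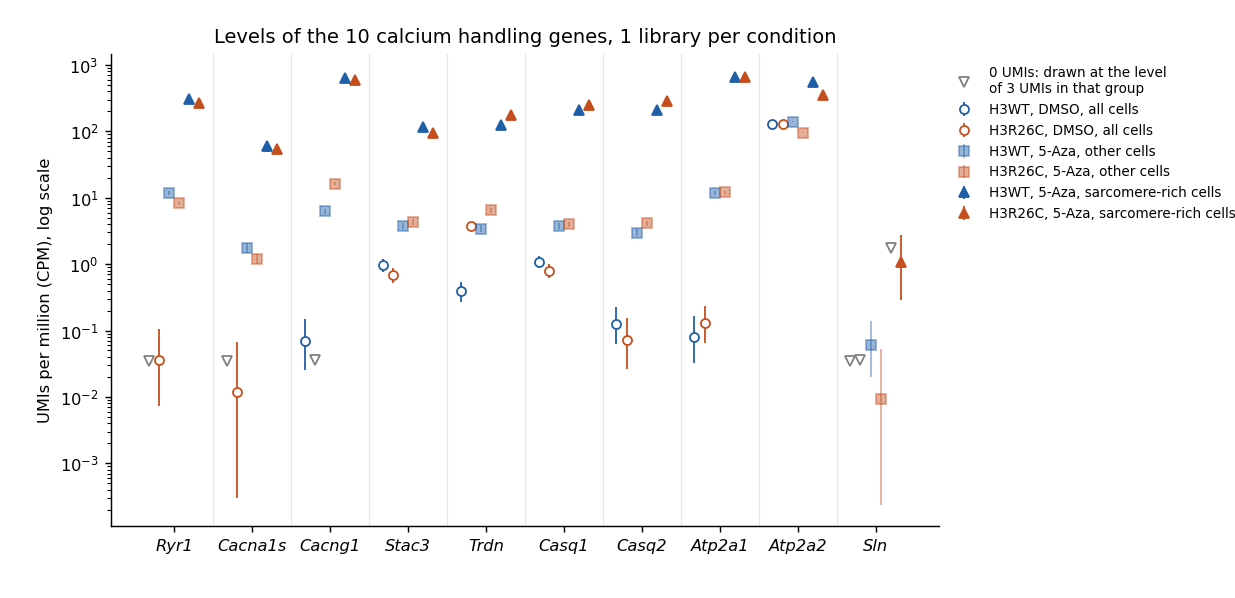
Level of each of the 10 genes (CPM, log axis) in all kept DMSO cells (open circles) and in the remaining (squares) and sarcomere-rich (filled triangles) cells of the 5-Aza libraries, with 95% Poisson intervals, 1 library per condition, and grey open triangles at the level of 3 UMIs where a group had 0. For each gene except Sln the sarcomere-rich cells lie above the remaining cells in both libraries, and Atp2a2 alone is above 90 CPM in every group.

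Ryr1 (chr7:29003344-29125179, minus strand, GRCm38) was at 303 CPM in sarcomere-rich cells and 11.9 CPM in the remaining cells of H3WT, a ratio of 25.5 (22.9 to 28.5). In H3R26C the levels were 268 and 8.22 CPM, a ratio of 32.6 (29.7 to 35.7). With DMSO it had 0 UMIs in H3WT and 3 in H3R26C. The release channel was therefore read almost entirely in the 5-Aza libraries.

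Cacna1s (chr1:136052750-136119822, plus strand), the pore and voltage sensor subunit of the receptor, was at 59.3 and 1.77 CPM in sarcomere-rich and remaining H3WT cells, a ratio of 33.6 (25.8 to 43.6), and at 54.3 and 1.21 CPM in H3R26C, a ratio of 45.0 (35.9 to 56.5). Cacng1 (chr11:107703218-107716522, minus strand), its gamma subunit, was at 648 and 6.22 CPM in H3WT, a ratio of 104 (93.8 to 116). In H3R26C the same gene was at 592 and 16.2 CPM, a ratio of 36.4 (34.2 to 38.8), so its levels in sarcomere-rich cells were close and its levels in the remaining cells were not. Stac3 (chr10:127501686-127508823, plus strand), the adaptor that the receptor needs to reach and work at the triad, was at 115 and 3.76 CPM in H3WT, a ratio of 30.6 (25.4 to 36.7), and at 93.7 and 4.34 CPM in H3R26C, a ratio of 21.6 (18.8 to 24.9). All 3 were thus high in the same group of cells as the release channel.

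Trdn (chr10:33080554-33476709, plus strand), triadin, was at 125 and 3.44 CPM in sarcomere-rich and remaining H3WT cells, a ratio of 36.2 (30.2 to 43.4), and at 177 and 6.46 CPM in H3R26C, a ratio of 27.4 (24.6 to 30.5). It overlaps 8 other annotated genes, 4 of them on its own strand, and their effect on its count was not tested. It was also the gene with the most uneven DMSO values, described with the treatment below.

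Casq1 (chr1:172209894-172219868, minus strand), the calsequestrin of fast fibres, was at 208 and 3.75 CPM in H3WT, a ratio of 55.4 (47.4 to 64.8), and at 247 and 3.99 CPM in H3R26C, a ratio of 61.9 (55.1 to 69.5). Casq2 (chr3:102086415-102146514, plus strand), the calsequestrin of slow and cardiac muscle, was at 208 and 2.98 CPM in H3WT, a ratio of 70.0 (59.4 to 82.7). In H3R26C it was at 288 and 4.11 CPM, also a ratio of 70.0 (62.6 to 78.4). Both buffers were thus read in sarcomere-rich cells of both libraries.

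Atp2a1 (chr7:126445858-126463108, minus strand) was at 661 and 11.7 CPM in sarcomere-rich and remaining H3WT cells, a ratio of 56.3 (51.6 to 61.4), and at 666 and 12.1 CPM in H3R26C, a ratio of 55.1 (51.5 to 58.9). Atp2a2 (chr5:122453513-122502225, minus strand) was at 558 and 141 CPM in H3WT, a ratio of 3.97 (3.71 to 4.24), and at 359 and 95.5 CPM in H3R26C, a ratio of 3.76 (3.55 to 3.98). The pumps thus shared a direction and differed in range, since Atp2a2 was high in every cell group to begin with. Sln (chr9:53850164-53854560, plus strand), the small membrane protein sarcolipin that slows SERCA, had 5 UMIs in kept cells of each 5-Aza library and 0 with DMSO. Of these, 0 of 5 in H3WT and 4 of 5 in H3R26C were in sarcomere-rich cells, and the 4 were in 1 cell.

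The sarcomere-rich cells held 2.02% of all kept UMIs in H3WT and 3.41% in H3R26C. They held 68.2% and 56.3% of those of Cacng1, 59.1% and 71.2% of Casq2, 53.7% and 66.0% of Atp2a1, and 34.5% and 53.5% of Ryr1. The shares were 53.3% and 68.6% for Casq1, 42.7% and 49.2% for Trdn, 40.9% and 61.4% for Cacna1s, 38.7% and 43.3% for Stac3, and 7.57% and 11.7% for Atp2a2. Most UMIs of Ryr1, Stac3, Cacna1s and Trdn in H3WT, of Stac3 and Trdn in H3R26C, and of Atp2a2 in both thus lay outside the sarcomere-rich range.

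Detection was compared after thinning each cell to 5000 UMIs, because cells of unequal depth show unequal shares. In sarcomere-rich cells Cacng1 was detected in 56.9% (H3WT) and 79.4% (H3R26C) of cells, Atp2a1 in 60.8% and 76.5%, Ryr1 in 46.1% and 52.4%, Casq2 in 31.4% and 50%, and Cacna1s in 16.7% and 20%. The unthinned shares were higher, for example 59.8% and 82.4% for Ryr1. In the remaining cells of the same libraries, the 8 genes without Atp2a2 and Sln were detected in 0.524% to 4.69% of cells. The part of free RNA in these shares was not tested. Atp2a2 was detected in 46.4% and 36.3% of remaining cells and in 45.2% and 45.7% of DMSO cells, against 52.9% and 56.5% in sarcomere-rich cells. It was thus the gene detected in many cells of every group, and in H3R26C its share in sarcomere-rich cells (48.7 to 64.0) lay above that in remaining cells (35.2 to 37.4).

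**Figure D2:**
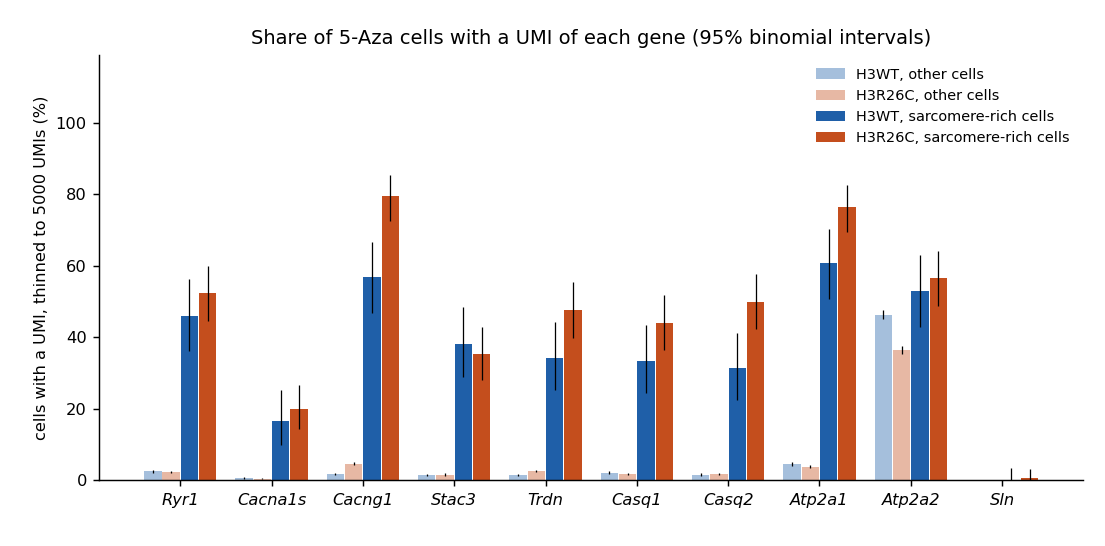
Share of 5-Aza cells (percent) with at least 1 UMI of each gene after thinning every cell to 5000 UMIs, in remaining (pale bars) and sarcomere-rich (dark bars) cells of each library, with exact binomial 95% intervals. The dark bars stand at 16.7% or more and the pale bars at 4.69% or less for the 8 genes other than Atp2a2 and Sln, while Atp2a2 has 46.4% and 36.3% in remaining cells.

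The machinery was not read complete in single cells at this depth. The median thinned sarcomere-rich cell had UMIs of 4 of the 10 genes in H3WT and 5 in H3R26C, and of the 9 genes other than Atp2a2 a mean of 3.18 and 4.06 were seen. At least 5 of the 9 were seen in 28.4% of such cells (29 cells) and 41.8% (71 cells), and none in 11.8% and 4.12%. In the remaining cells 87.7% and 85.1% had none, and 20 and 25 cells had at least 5. Without thinning, 6 of 102 H3WT cells and 3 of 170 H3R26C cells had no UMI of the 9 genes. Sarcomere genes still made up over 1% of their UMIs. A UMI of Myog, the muscle differentiation factor myogenin, was in all 6 of those H3WT cells and in 1 of the 3 H3R26C cells. Such cells had a median of 13507 and 14105 UMIs. A Myog UMI was found in 93 of 102 and 164 of 170 sarcomere-rich cells. The 9 genes summed to 2325 CPM in H3WT cells with Myog and 2371 CPM in the 9 cells without, and to 2419 and 328 CPM in H3R26C, where 6 cells had none. The close H3WT sums hide genes that differed in direction. With and without Myog, Ryr1 was at 274 and 746 CPM and Cacna1s at 53.8 and 143 CPM. Cacng1 was at 683 and 115 CPM and Stac3 at 121 and 28.7 CPM. The 9 H3WT cells without Myog held only 248 UMIs of the 9 genes, and their 78 Ryr1 UMIs lay in 4 cells.

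Cells were then placed in bins by the share of their UMIs from the 6 sarcomere genes, to follow the 10 genes along that range. In H3WT, Ryr1 was at 2.98 CPM in cells under 0.05% (5047 cells), 31.3 CPM at 0.05 to 0.2% (681 cells), 226 CPM at 0.2 to 1% (163 cells), 386 CPM at 1 to 5% (53 cells) and 204 CPM at 5 to 15% (48 cells). In H3R26C it was at 3.09, 9.12, 161, 288 and 214 CPM in the same bins (6254, 991, 204, 121 and 49 cells). The highest Ryr1 level was thus in the 1 to 5% bin of both libraries, not in the cells with the largest sarcomere share.

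Cacng1 went from 2.92 and 15.7 CPM in the lower bins to 77.1, 611 and 702 CPM in H3WT, and from 10.1 and 23.3 to 177, 544 and 719 CPM in H3R26C. Casq1 went from 2.91 and 5.27 to 25.4, 199 and 221 CPM in H3WT and from 2.86 and 5.47 to 33.0, 179 and 429 CPM in H3R26C. Both genes had their highest level in the 5 to 15% bin of both libraries. A single H3WT cell near the gate, described with the comparison of the lines, carried 102 of the 186 Casq1 UMIs of the 1 to 5% bin, and without it that bin was at 93.6 CPM (74.7 to 116). Ryr1 in the same bin was at 324 CPM without it. In the 0.2 to 1% bin, below the gate, H3WT Ryr1 was already at more than its 5 to 15% level (226 against 204 CPM), while Casq1 was at 25.4 against 221 CPM. Atp2a1 at 0.2 to 1% was at 173 CPM in H3WT and 199 in H3R26C, against 644 and 702 CPM at 5 to 15%, and Casq2 was at 32.6 and 67.6 against 179 and 322 CPM. Cacna1s had 31.3 and 25.2 against 38.2 and 55.6 CPM, Trdn 46.2 and 59.8 against 145 and 211 CPM, and Stac3 38.5 and 49.6 against 115 and 91.7 CPM. Atp2a2 moved least, from 135 to 287 and 555 CPM in H3WT and from 90.9 to 207 and 300 CPM in H3R26C over the first, middle and last of these bins.

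**Figure D3:**
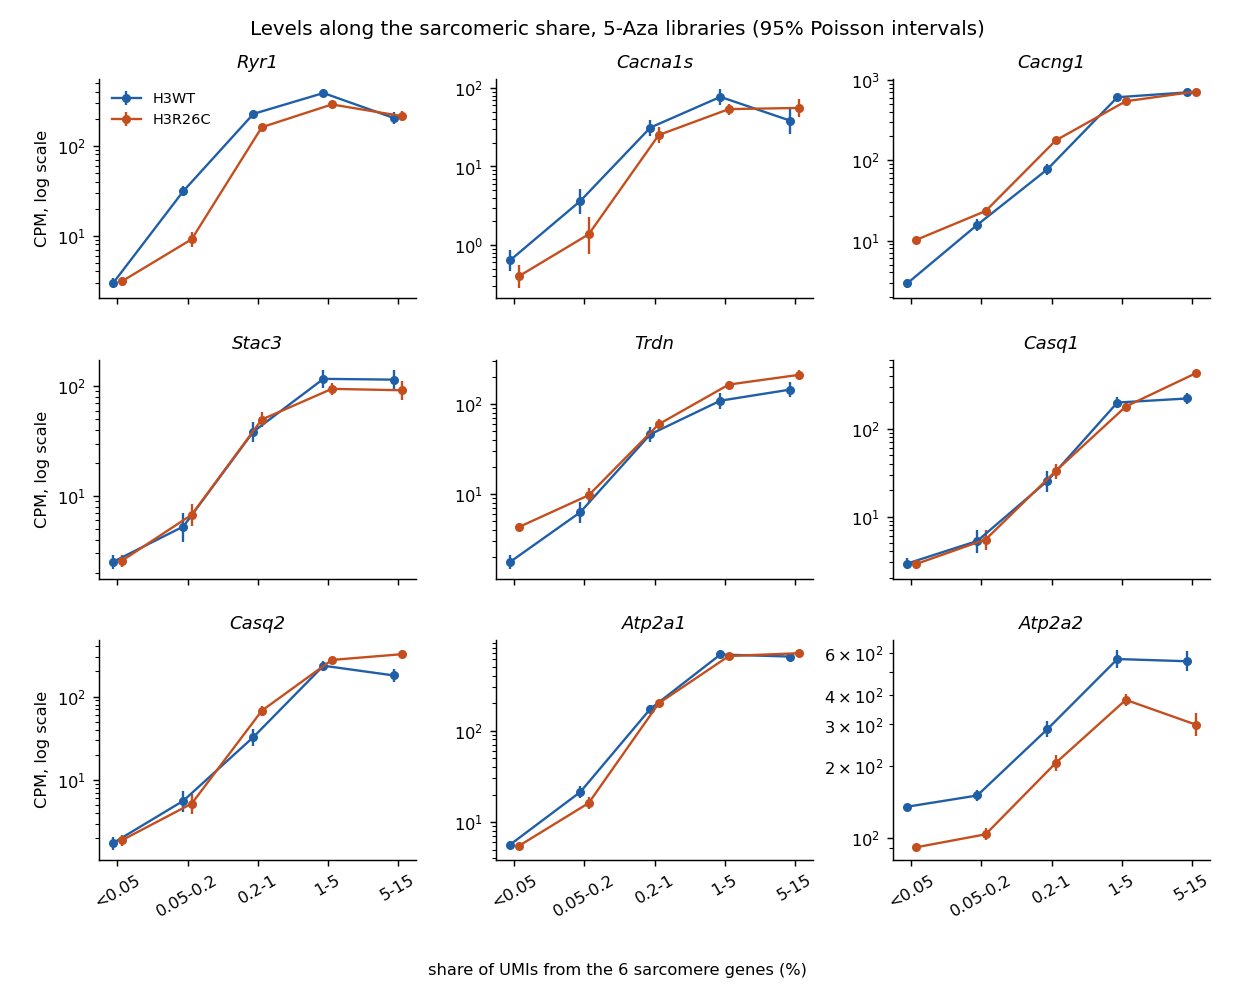
Level of the genes (CPM, log axis) in bins of cells by the share of UMIs from the 6 sarcomere genes (percent), 1 line per 5-Aza library, with 95% Poisson intervals. Ryr1 peaks in the 1 to 5% bin in both libraries (386 CPM in H3WT and 288 CPM in H3R26C), while Casq1 and Cacng1 are highest at 5 to 15%.

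Cells under the gate with at least 2 Myog UMIs numbered 109 in H3WT and 251 in H3R26C with 5-Aza, and 0 with DMSO. In them Ryr1 was at 308 and 109 CPM, Cacng1 at 166 and 217 CPM, and Atp2a1 at 207 and 140 CPM. H3WT Ryr1 was thus at the level of sarcomere-rich cells (303 CPM) in cells that had not reached the gate, whereas Casq1 was at 21.9 and 20.6 CPM against 208 and 247 CPM above it. For each 1000 UMIs of the 6 sarcomere genes, the remaining cells held 5.52 times as many Ryr1 UMIs as sarcomere-rich cells in H3WT (4.96 to 6.15) and 3.28 times in H3R26C (3.0 to 3.60). The ratio was 1.35 (1.22 to 1.5) and 2.94 (2.76 to 3.13) for Cacng1, 4.61 and 4.95 for Stac3, 4.2 and 2.38 for Cacna1s, 3.89 and 3.90 for Trdn, 2.54 and 1.73 for Casq1, 2.51 and 1.94 for Atp2a1, 2.01 and 1.53 for Casq2, and 35.5 and 28.5 for Atp2a2. Each of the 9 genes without Sln thus had more UMIs per sarcomere gene UMI in the remaining cells. The same 6 sarcomere genes also split the cells, so this direction is in large part set by the split itself. The part of free RNA in these counts was not tested. The Ryr1 UMIs of the remaining cells were gathered in few cells. Those with at least 5 were 49 of 5891 H3WT cells, with 70.4% of 980 UMIs, and 37 of 7449 H3R26C cells, with 53.6% of 879 UMIs. Cells with at least 5 UMIs held 53.9% and 56.8% for Cacng1 and 39.2% and 44.1% for Atp2a1. Most other genes were less gathered. For Stac3, Cacna1s, Trdn, Casq2 and Casq1 the shares were 20.6, 19.2, 16.2, 11.4 and 7.42% in H3WT and 17.0, 20.9, 27.6, 29.4 and 13.1% in H3R26C.

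Pairs of genes with the same task in different fibres were compared as a share within the pair. Atp2a1 made up 0.0632% and 0.0996% of the Atp2a1 and Atp2a2 UMIs with DMSO in H3WT and H3R26C, 7.71% (7.25 to 8.19) and 11.2% (10.7 to 11.8) in the remaining 5-Aza cells, and 54.2% (52.0 to 56.4) and 65.0% (63.5 to 66.5) in sarcomere-rich cells. By bin it was 4.04, 12.4, 37.6, 54.5 and 53.7% in H3WT and 5.67, 13.5, 49.1, 63.1 and 70.1% in H3R26C. The fast pump thus held the larger share only in the sarcomere-rich bins. Its share was higher with H3R26C in each bin, with intervals that overlapped at 0.05 to 0.2%. The level of Atp2a1 itself was not, at 0.758 to 1.15 times that of H3WT over the bins, while Atp2a2 was at 0.540 to 0.721 times.

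Casq1 made up 49.9% (46.2 to 53.7) of calsequestrin UMIs in sarcomere-rich cells of H3WT and 46.2% (44.0 to 48.4) in H3R26C. By bin the share was 62.4, 48.4, 43.8, 45.9 and 55.3% in H3WT and 60.3, 51.3, 32.8, 39.5 and 57.1% in H3R26C, lowest at 0.2 to 1% in both libraries. Without the single H3WT cell near the gate, the H3WT share at 1 to 5% was 35.7% (29.6 to 42.2) and the lowest of its bins. With DMSO it was 89.5% (94 Casq1 against 11 Casq2 UMIs) and 91.8% (67 against 6). The calsequestrin pair therefore did not shift along the range the way the pump pair did.

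**Figure D4:**
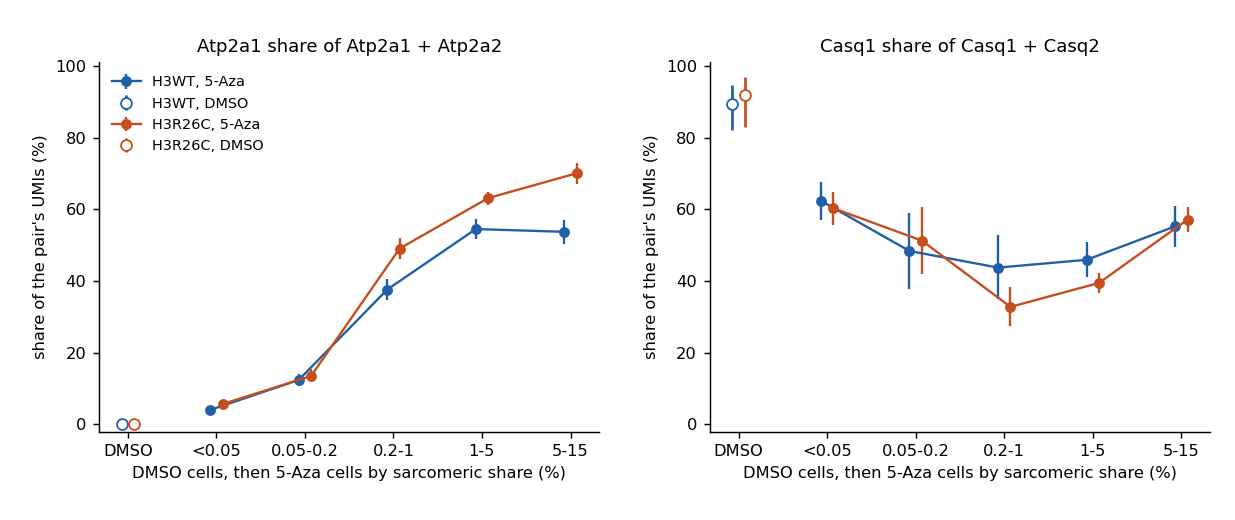
Share of Atp2a1 in Atp2a1 plus Atp2a2 UMIs (left) and of Casq1 in Casq1 plus Casq2 UMIs (right), in percent, for DMSO cells (open circles) and for 5-Aza cells by bin of sarcomere gene share (filled circles), with exact binomial 95% intervals. The Atp2a1 share goes from 4.04% to 53.7% in H3WT and from 5.67% to 70.1% in H3R26C, and the Casq1 share of 5-Aza cells stands lowest at 0.2 to 1% in both (43.8% and 32.8%), an order that in H3WT rests on 1 cell of the next bin.

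The effect of 5-Aza was read from all kept cells of each line, where more cells with a gene and more RNA in each cell cannot be told apart, and where the days in culture may also have differed. In both lines 8 of the 10 genes were at least 2-fold higher with 5-Aza than with DMSO, where 4.88% of genes were in H3WT and 9.09% in H3R26C, and none was 2-fold or more lower, where 0.269% and 3.02% were. The exceptions were Atp2a2 and Sln. Over the 9 genes without Sln the median log2 difference was 2.31 and 2.89, beside 0.04 and −0.02 over all genes.

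Ryr1 was at 17.7 CPM with 5-Aza in H3WT against 0 UMIs with DMSO, at least 514-fold higher against a floor of 3 counts over the DMSO library (the exact interval has a lower limit of 417), and at 17.1 against 0.0357 CPM in H3R26C, a ratio of 479 (164 to 2323) that rests on 3 DMSO UMIs. Cacng1 was at 19.2 against 0.0691 CPM in H3WT, a ratio of 278 (127 to 758), and at 35.9 CPM against 0 UMIs in H3R26C, at least 1005-fold higher against the same floor (lower limit 817). Atp2a1 was at 24.9 against 0.0806 CPM, a ratio of 309 (149 to 768), and at 34.4 against 0.131 CPM, a ratio of 263 (147 to 527). These 3 genes went from at most 0.131 CPM with DMSO to 17.1 CPM or more with 5-Aza. Casq2 was at 7.13 against 0.127 CPM in H3WT and 13.8 against 0.0714 CPM in H3R26C, and Cacna1s at 2.93 CPM against 0 UMIs and 3.02 against 0.0119 CPM.

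Casq1 and Stac3 had a low level with DMSO already. Casq1 was at 7.87 against 1.08 CPM in H3WT, a ratio of 7.28 (5.85 to 9.13), and at 12.3 against 0.797 CPM in H3R26C, a ratio of 15.4 (12.1 to 20). Stac3 was at 6.01 against 0.955 CPM, a ratio of 6.29 (4.98 to 8.03), and at 7.39 against 0.678 CPM, a ratio of 10.9 (8.33 to 14.5). The DMSO UMIs of both were nearly all single, with 94 Casq1 UMIs in 87 H3WT cells and 67 in 66 H3R26C cells.

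Trdn was at 5.88 against 0.391 CPM in H3WT, a ratio of 15 (10.6 to 21.9), and at 12.3 against 3.75 CPM in H3R26C, a ratio of 3.28 (2.90 to 3.72). The H3R26C DMSO level was 9.57 times that of H3WT (6.71 to 14.1), where 1.91% of genes were 2-fold or more higher and Trdn was the only one of the 10. None of the 10 was 2-fold or more lower there, where 0.588% of genes were. These 315 UMIs were in 109 of 4727 cells, 19 cells with at least 5 held 54.9% of them, and 1 cell held 40. Of the 51 cells with at least 2, 1 had a UMI of another of the 9 genes without Atp2a2. Myog had 0 UMIs in this whole library, so none could be found in these cells. Casq1 and Stac3 had 67 and 57 UMIs over its 4727 cells. Such counts are too low to tell whether triadin RNA lay apart from the rest of the machinery. In H3WT with DMSO, 34 Trdn UMIs lay in 15 cells.

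Atp2a2 was at 149 against 127 CPM in H3WT, a ratio of 1.17 (1.14 to 1.2), and at 104 against 131 CPM in H3R26C, a ratio of 0.796 (0.775 to 0.817). The lines thus moved in opposite directions for this one gene, by less than 1.3-fold each. In the remaining cells, without the sarcomere-rich ones, its ratios were 1.10 (1.08 to 1.13) and 0.727 (0.708 to 0.747). There, 8 of the 10 genes were still 2-fold or more higher with 5-Aza in H3WT (4.41% of genes were) and 7 in H3R26C (8.47%), with Trdn at a ratio of 1.72 (1.51 to 1.98) the one that dropped out. None was 2-fold or more lower there (0.262% and 2.96% of genes were). The remaining cells still included the cells under the gate with at least 2 Myog UMIs. In H3WT, 109 such cells held 603 of the 980 Ryr1 UMIs but 43 of the 310 Casq1 UMIs. In H3R26C, 251 held 501 of 879 and 95 of 427. Under 0.05%, the Casq1 UMIs were nearly all single (209 in 205 H3WT cells and 266 in 256 H3R26C cells). A rise outside cells with Myog, and the part of free RNA, were not tested.

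The last comparison was H3R26C against H3WT among cells treated with 5-Aza. In sarcomere-rich cells none of the 9 genes without Sln differed by 2-fold, where 8.25% of genes were 2-fold or more higher and 7.27% lower. The median log2 difference over the 9 was −0.13, beside −0.08 over all genes. Sln, with 4 against 0 UMIs, was too low to compare. Trdn at 1.42 (1.22 to 1.67), Casq2 at 1.38 (1.22 to 1.56) and Casq1 at 1.19 (1.05 to 1.35) were higher with H3R26C by ratio. Atp2a2 at 0.643 (0.591 to 0.699), Stac3 at 0.814 (0.682 to 0.975), Ryr1 at 0.884 (0.794 to 0.985) and Cacng1 at 0.913 (0.849 to 0.982) were lower. For Atp2a1 at 1.01 (0.939 to 1.08) and Cacna1s at 0.915 (0.718 to 1.17) the interval held 1. With each cell given equal weight (the mean of single-cell CPM), the log2 difference turned to 0.24 for Ryr1 and 0.12 for Cacng1, and Atp2a2 was at −0.05 in place of −0.64. By the same mean, Atp2a1 was at 709 CPM in H3R26C against 500 in H3WT, Casq2 at 297 against 162 and Casq1 at 245 against 168. Trdn was then at 182 against 138 CPM, Cacna1s at 56.6 against 53.9 and Stac3 at 90.9 against 105. The median cell had 180 CPM of Atp2a2 in H3R26C and 143 CPM in H3WT. At a gate of 5% the log2 difference of Ryr1 was 0.08.

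Few cells weighed on these ratios, more so in H3WT. The 10 highest cells for a gene held 38.3% (Stac3) to 78.5% (Casq1) of its UMIs in H3WT. In H3R26C they held 20.1% (Cacng1) to 40.5% (Casq1). The median H3WT cell had 0 CPM of Casq1 and Trdn, against 48.5 and 130 CPM in H3R26C. The counting intervals do not cover this, and leaving out 1 cell does not remove it. The single cell with the most was in H3WT. It held 517 UMIs of the 9 genes without Atp2a2, 13.0% of those in the 102 cells, including 102 of Casq1 (28.8%), 68 of Casq2, 166 of Atp2a1 and 70 of Ryr1, in a cell of 38046 UMIs with only 1.04% from the sarcomere genes. Leaving out this cell and the highest H3R26C cell (171 UMIs, 1.9%) brought Casq1 to 1.60 (1.39 to 1.85), Casq2 to 1.64 (1.44 to 1.87), Ryr1 to 0.981 (0.876 to 1.10), Cacng1 to 0.960 (0.891 to 1.04) and Atp2a1 to 1.13 (1.05 to 1.22). The interval thus came to hold 1 for Ryr1 and Cacng1 and to leave it out for Atp2a1. Trdn stayed at 1.45 (1.24 to 1.71) and Atp2a2 at 0.677 (0.621 to 0.739).

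Within bins of equal sarcomere share, Trdn was higher with H3R26C in 5 of 5 bins (ratios of 1.29 to 2.42) and Atp2a2 lower in 5 of 5 (0.540 to 0.721), each with an interval that left out 1. Ryr1 ranged from 0.292 at 0.05 to 0.2% (0.230 to 0.368) to 1.05, and Casq2 from 0.925 to 2.07. Stac3 ranged from 0.8 to 1.29, with an interval that held 1 in each bin. In these sums over cells, Atp2a2 and Trdn were the genes with 1 direction in each bin, and with 1 library each the line and the culture cannot be told apart.

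In the remaining cells Cacng1 was 2.61 times higher with H3R26C (2.37 to 2.89) and was the only one of the 9 genes past 2-fold, where 5.18% of genes were higher and 2.63% lower. Trdn was at 1.88, Casq2 at 1.38, Stac3 at 1.15, Casq1 at 1.06, Atp2a1 at 1.03, Ryr1 at 0.693, Cacna1s at 0.683 and Atp2a2 at 0.679. The Cacng1 ratio was 3.46 (2.98 to 4.04) in the cells under 0.05%, where 940 H3R26C UMIs lay in 433 cells and 210 H3WT UMIs in 115. Of 152 such H3R26C cells with at least 2 Cacng1 UMIs, 61 had a Myog UMI and 70 a UMI of another of the 9 genes without Atp2a2. Cacng1 was thus read in cells that the bin itself limits to few sarcomere transcripts. In many of them no other of these genes was detected, which at this depth does not show absence. The same shares over all cells of the bin were not counted.

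**Figure D5:**
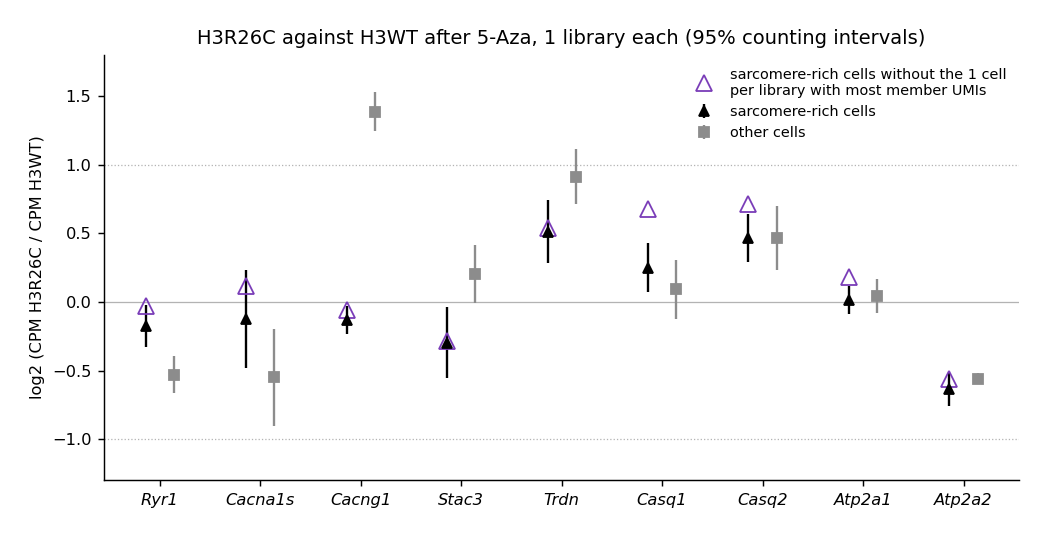
Log2 ratio of H3R26C to H3WT levels for 9 genes with 5-Aza, in sarcomere-rich cells (filled triangles), the same without the highest cell of each library (open triangles, drawn without intervals) and remaining cells (squares), with exact 95% counting intervals and dotted lines at 2-fold. The filled triangles lie within 2-fold for each of the 9 genes, and Cacng1 in remaining cells is the one point outside it.

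Of 55 further genes of calcium handling and excitation, sorted by role, 22 of the 46 that reached 1 CPM were 2-fold or more higher in sarcomere-rich H3WT cells and 4 were lower, with a median log2 difference of 0.94, where 10.1% of all genes were higher and 25.8% lower. In H3R26C, 22 of 44 were higher and 7 lower, with a median of 0.65, where 7.87% of all genes were higher and 23.4% lower. These counts rest on the same split by sarcomere genes and are a description, since muscle genes move with those genes. The count differed by role, and levels below are those of sarcomere-rich cells in H3WT and H3R26C.

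Of 11 triad structure genes, 9 were higher in both libraries. Jsrp1, which binds the dihydropyridine receptor and calsequestrin, was at 318 and 433 CPM, Bin1, which shapes the transverse tubule, at 867 and 606 CPM, and Cav3, a muscle caveolin, at 165 and 65.9 CPM. Tmem38a and Tmem38b, cation channels of the store membrane, were at 301 and 273 CPM and at 214 and 273 CPM. The junctophilins, which tie the store to the tubule, were at 48.2 and 55.3 CPM (Jph2) and 21.7 and 5.03 CPM (Jph1). Dysf, the membrane repair protein dysferlin, was at 27.6 and 38.1 CPM, 3.06 and 5.44 times the remaining cells, and Asph, at 97.5 and 134 CPM, was not called.

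Among 6 other subunits of the dihydropyridine receptor and related channels, 3 were higher in both libraries. Cacnb1, the skeletal beta subunit, was at 243 and 182 CPM (19.3 and 10.5 times the remaining cells), Cacna2d1 at 92.2 and 104 CPM (5.05 and 4.26 times), and Cacng6 had 8 and 19 UMIs. The non-skeletal subunits were not higher, with Cacnb3 at 18.8 and 31.5 CPM and Cacna1c, the cardiac pore subunit, at 2 UMIs in each library. Among 13 release channels and their partners, 9 reached 1 CPM and 0 were higher in either library, while 2 and 5 were lower. Fkbp1a, which binds the release channel, was at 405 and 366 CPM (1.13 and 1.11 times). The triad genes were thus mostly higher and the partners of the channel were not.

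Of 6 lumenal genes, 2 were higher in both libraries. Hrc, a histidine-rich calcium-binding protein, was at 248 and 429 CPM (81.9 and 74.7 times) and Srl, sarcalumenin, at 369 and 291 CPM (43.8 and 39.1 times), whereas the general chaperones Hspa5, at 534 and 714 CPM, and Calr, at 423 and 556 CPM, were not called higher. The muscle buffers of the store were thus high without the chaperones. Of 8 pump genes and pump regulators, 4 were higher in each library, but only Mrln and Strit1 in both. Strit1 rested on 3 and 4 UMIs in sarcomere-rich cells. The others were Pln (14 UMIs) and Atp2b4 (17 UMIs) in H3WT, and Atp2a3 (8 UMIs) and Slc8a3 (6 UMIs) in H3R26C. Mrln, the pump regulator myoregulin, was at 44.0 and 29.9 CPM (36.8 and 30.2 times). The surface pumps Atp2b1, at 154 and 216 CPM, and Atp2b4, at 9.98 and 8.74 CPM, stood at 1.43 and 1.22 times and at 2.64 and 0.897 times.

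In the cytosol, Pvalb, the calcium buffer parvalbumin, was at 96.9 and 47.4 CPM (32.0 and 19.9 times). Orai1, the store-operated calcium channel, was at 109 and 97.2 CPM (5.68 and 3.66 times), and Stim1, the store sensor that opens it, at 45.8 and 48.2 CPM (0.638 and 1.2 times). The channel and its sensor thus differed. At the surface, Chrna1, a subunit of the acetylcholine receptor, was at 401 and 781 CPM (86.2 and 52.4 times). Scn4a, the muscle sodium channel, had 2 and 13 UMIs (6.93 and 18.4 times) and was called higher in H3R26C only. Clcn1, the muscle chloride channel, had 3 and 1 UMIs and was not called.

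The genes whose pattern was most like that of each member were found by Pearson's r of log2(CPM + 1) over 12 profiles (libraries and bins), among 9913 genes. The profiles share libraries and a common rise with the sarcomere share, so r is high for many genes and is only a description. For Ryr1 they were Neb (r = 0.992) and Myh1, for Atp2a1 Myh3 (0.998), Mymk and Myh1, for Casq1 Hspb2 (0.996), Tmem38a and Sgca, and for Casq2 Hrc (0.998), Klhl41 and Tmem182. For Cacna1s they were Myom1 (0.994), Ppfia4 and Myh4, for Cacng1 Nes (0.996), Des and Cavin4, for Trdn Actn3 (0.992), H19 and Tmem182, and for Stac3 Srl (0.996), Ank1 and Trim55. Atp2a2 was apart, with Bicd2 (0.991), Rrp12 and Ehbp1l1, which are no muscle markers. No gene came above 0.827 for Sln, whose UMIs were too few for a pattern.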

How the data were processed

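The authors deposited filtered gene by barcode matrices of UMI counts from a droplet single-cell platform, made with Cell Ranger (6.1.0 in the matrix headers; mouse reference). The counts are raw, with no normalization, and count tags near transcript ends, so levels were compared between libraries and cells. A share within a pair of genes compares UMIs, not transcripts per length, and its differences between cells are what was read. The cell filter has the same limits as the authors', and their Seurat 4 steps were not repeated. From these counts, cells were kept and split as stated, UMIs were summed per library and cell group, and divided by total UMIs (CPM). A gene was called at 2-fold on log2(CPM + 1) where either group reached 1 CPM, and without that minimum for the 10 genes. Intervals are exact (Poisson for a level, binomial for a share, conditional binomial for a ratio) and cover counting error only. With 1 library per condition no test was possible. The ratio intervals were checked on simulated counts with counting error alone, which could not check them for UMIs gathered in few cells. Doublets were not removed, and 243 kept barcodes occurred in more than 1 library (1 and 4 among sarcomere-rich cells). Gene positions are from GENCODE for GRCm38, where 32235 of 32285 gene IDs matched, and promoters from RefSeq. Python 3.11.15, numpy 2.4.6, scipy 1.17.1 and pandas 2.3.3 were used. The members and lists were chosen with earlier results of these data known. Named were the 10 genes, in each role of the wider list the genes 4-fold or more higher in both 5-Aza libraries and otherwise up to 2 with the highest level; and for each member the 3 genes with the highest r among those at 5 CPM or more in sarcomere-rich cells. Some genes that this rule names are not reported here.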

Additional observations from a re-analysis of the deposited data

Results flagged for a closer look

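Atp2a2 moved in opposite directions with 5-Aza in the 2 lines, at 1.17 times its DMSO level in H3WT (149 against 127 CPM) and 0.796 times in H3R26C (104 against 131 CPM) over all kept cells. The difference between the lines was not tested, since each condition had 1 library. Barcodes below the cell filter, which no comparison used, held the 9 genes without Atp2a2 at 510 CPM with H3WT and 5-Aza (interval 496 to 525) and at 422 CPM with H3R26C and 5-Aza (407 to 438). The DMSO barcodes below the filter were at 5.25 and 2.97 CPM. In the left-out barcodes of H3WT with 5-Aza, Sln had 20 UMIs in 15 barcodes, against 5 UMIs in kept cells.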

How the results depend on the processing

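No paired analysis was possible because the labels number no replicates and no condition has more than 1 library. Of 309 alternative values, 224 stayed the same and 85 moved. A count of genes was taken as the same within 1.5 times, and other values within the counting interval of the main value. A change of direction was sought only for ratios between the lines past 2-fold, which Sln alone had, and 0 were found. Smaller ratios could turn without being counted, as the median over the 10 genes did below. The counts of genes past 2-fold stayed within 1.5 times of the values given, at 9 to 10 of 10 between sarcomere-rich and remaining cells, 6 to 8 between 5-Aza and DMSO, and 18 to 25 (H3WT) and 16 to 23 (H3R26C) of the wider list. The sarcomere-rich share was 1.70% in H3WT and 2.23% in H3R26C, and became 8.79% and 7.51% with a looser cell filter, 2.30% and 2.98% at a gate of 0.5%, 1.35% and 1.64% at 2%, and 0.818% and 0.643% at 5%. It was 1.39% in H3WT with a stricter filter and 1.69% in H3R26C without Acta1 in the gate. The order of the lines thus turned at 5% and with the looser filter, and the cause was not tested. The Atp2a1 share in sarcomere-rich cells was 57.1% in H3WT without Acta1, and in H3R26C 70.2% with the stricter filter, 63.1%, 68.9% and 70.1% at gates of 0.5%, 2% and 5%, and 70.0% without Acta1. In remaining cells it was, for H3WT and H3R26C, 8.86% and 12.2% (looser), 5.95% and 9.33% (stricter), 6.65% and 8.28% (0.5%), 9.81% and 14.2% (2%), 11.7% and 21.5% (5%), and 9.25% and 15.4% (without Acta1). The Casq1 share in sarcomere-rich cells was 53.8% (looser) and 55.3% (5%) in H3WT, and 57.1% (5%) and 49.8% (without Acta1) in H3R26C. The median log2 difference of H3R26C and H3WT over the 10 genes, −0.06, became 0.32 with the mean of single-cell CPM, where each cell has equal weight, and there Atp2a2 was at −0.05 on the log2 scale in place of −0.64. Mean detection over the genes was 37.1% and 46.2% in sarcomere-rich cells of H3WT and H3R26C, 6.28% and 5.57% in remaining cells and 4.69% and 4.79% with DMSO when thinned, and 49.5% and 68.5%, 11.1% and 10.8%, and 9.38% and 8.72% unthinned. The values without the highest cell, also in the 1 to 5% bin, were chosen after seeing the data. Bins at 15% or more could not be run, with 1 and 0 cells. With 1 library per condition, differences between lines or treatments have no replicate check. Genes with under 10 UMIs in a group are limited by depth. They include Sln and, with DMSO, Ryr1, Cacna1s and Cacng1 in both lines, Atp2a1 in H3WT and Casq2 in H3R26C.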
